A study of Homo sapiens with 4 samples.

Results

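CYBRD1 and a group of genes that take up, reduce, export and sense cellular iron were compared between a human prostate cancer line and its bone-metastatic derivative by microarray (Affymetrix Human Gene ST). The members were named by gene symbol. CYBRD1 was selected on its measured difference between these lines, and the genes that act with it in iron metabolism were added with results of these arrays known. They were CYBRD1, TFRC, SLC11A2, SLC40A1, STEAP1, STEAP2, STEAP3, HMOX1, IREB2 and ACO1. Each was read from the probe set annotated to that symbol alone, and 9 of the 10 had such a probe set, out of 18417 genes so represented among 33297 probe sets. No member had more than 1 such probe set. IREB2 was not analysed here. PC-3, a line that was established from a skeletal lesion, is labelled as having poor metastatic potential. PC-3-BM is the derivative labelled as having high metastatic potential, which the study describes as a bone-seeking clone, obtained by passing PC-3 cells several times through nude mice, into the heart and out of bone. Per the methods, both lines carried a reporter of firefly luciferase and green fluorescent protein, and cells recovered from bone were expanded in culture and sorted for fluorescence. Each line was measured on 2 arrays. Whether the 2 were separate cultures is not given, and every p-value here therefore reflects array-to-array spread alone, which may be technical. The labels speak of growth in mice and the methods of culture, and the state of the cells at extraction was taken as not settled.

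Iron enters most cells as ferric iron bound to transferrin, which the transferrin receptor TFRC carries into endosomes. There STEAP3 reduces it to the ferrous form, and the transporter SLC11A2 (DMT1) moves it to the cytosol. At the cell surface CYBRD1, known as duodenal cytochrome b and best studied in the gut, can reduce ferric iron or other acceptors with electrons from ascorbate. Ferritin stores the metal, SLC40A1 (ferroportin) exports it, and HMOX1 releases it from heme. The iron regulatory proteins ACO1 and IREB2 bind hairpins called iron-responsive elements in messenger RNAs, so that translation or stability follows the iron supply. STEAP1 and STEAP2 were named for their abundance in the prostate.

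CYBRD1 entered the study as a gene predicted to be a target of miR-135b, a microRNA that the study followed in these lines. The mature miR-135b-5p is shown because its seed, bases 2 to 8 in capitals, is the stretch by which such targets are recognised. It comes from the RefSeq table of GRCh38.p14, chr1:205448361-205448383, minus strand. The only other mature microRNA of that table with the same seed was miR-135a-5p, from chr3:52294270-52294292, minus strand. A target site in the CYBRD1 transcript was not searched for here.
hsa-miR-135b-5p: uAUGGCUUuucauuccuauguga
hsa-miR-135a-5p: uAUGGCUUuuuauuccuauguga

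The iron-responsive element is shown for FTL, the ferritin light chain, and for ALAS2, the erythroid enzyme that starts heme synthesis, because ACO1 acts through such hairpins. Capitals mark the loop letters CAGTG with the base that follows and, 5 bases apart on the other side, the bulged C. They were searched on the transcript strand in the first 50 bases after each gene start of the RefSeq promoter table. Both stretches begin within 50 bases of the gene start, in what is known as the 5′ untranslated region, FTL at chr19:48965329-48965358 on the plus strand and ALAS2 at chrX:55030943-55030972 on the minus strand of GRCh38.p14. These letters occurred in 1.67% of the 35116 windows of that table, and in none of those of the members. The search could not see elements further along a transcript, so it does not show that a member lacks one. TFRC, SLC11A2 and SLC40A1 are themselves in the list of transcripts with iron-responsive elements used below.
FTL: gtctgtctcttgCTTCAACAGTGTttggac
ALAS2: tcattcgttCGTCCTCAGTGCagggcaaca

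The table held 15 windows, from 250 bases before to 50 after a gene start, for 9 of the 10 members. HMOX1 had none. The hypoxia response core ACGTG, searched on both strands, was found in the window of TFRC, 88 bases before the gene start at chr3:196082162-196082191 on the minus strand, and in no window of the other members. It occurred in 21.4% of all windows. The antioxidant response core TGACNNNGC, also searched on both strands, was in no window of a member and in 13.3% of all windows. The stretch of TFRC is shown with the core in capitals, and a match is a description of the letters, not a site.
TFRC: acctcgcgagcgtACGTGcctcaggaagtg

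The medians of the 4 arrays lay between 6.66 and 6.72 on the log2 scale of robust multichip average (RMA) expression. Over all probe sets 23.2% had an adjusted p below 0.05 in limma, 11.6% higher and 11.6% lower in PC-3-BM, and the median difference was −0.02. The words rose and fell are kept for genes past that threshold. Of the 18417 genes with a probe set of their own 14.8% were higher and 14.8% lower, with a median of −0.04. The list and neighbour counts below are to be read beside these shares. The shares count genes of every brightness, and shares among genes as bright as those of a list were not computed. The lists were chosen with earlier results of these data known. Differences are PC-3-BM minus PC-3 on the log2 scale, with the standard error (SE) of the fit. Lines are given as mean ± standard deviation (SD) of 2 arrays. An exact two-sided permutation test of 2 against 2 arrays cannot go below 0.333, so the calls rest on variances moderated across probe sets. Leaving out 1 array lowered the number of probe sets called. For the members, and for named list genes and neighbours unless stated otherwise, calls lost in this way are given beside the gene. Other called genes enter the list and neighbour counts only, and their calls were not followed in such fits. The marker genes of the next paragraph were not refitted without single arrays.

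Of the 5 epithelial markers 4 fell in PC-3-BM, KRT8 from 10.97 to 8.94, EPCAM from 6.90 to 5.60, KRT18 from 10.77 to 10.37 and KRT19 from 11.86 to 11.53. The keratins stayed above the lower quartile of all probe sets, 5.02, while CDH1 lay at 5.02 in both lines, and the prostate antigen KLK3 was at 5.83 on average. KRT8 thus differed by −2.03, a size close to that of CYBRD1. Of red cell markers 5 of 8 were measured, which lay between 4.54 and 6.02, and none was called. Their mean over the list was 5.31 to 5.39 on the PC-3 arrays and 5.24 to 5.29 on the PC-3-BM arrays. Of 7 macrophage markers CD68, a lysosomal protein of many cells, rose from 10.66 to 11.38 and the others were not called. CD163 and MSR1 lay under the quartile, at 4.35 and 3.67 on average, and VSIG4, CSF1R, MARCO and CD14 above it, between 5.24 and 6.33. The mean of the macrophage list was 6.07 to 6.10 in PC-3 and 6.12 to 6.19 in PC-3-BM. Markers of leukocytes, 3 of 4 measured, were not called. COL1A1 and LUM of 5 stromal markers and PECAM1 of 4 endothelial markers were higher in PC-3-BM, LUM while under the quartile in both lines (3.56 and 4.10). In such bulk RNA fewer cells of a type and less RNA per cell cannot be told apart, and the part of these markers in the results below was not tested.

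CYBRD1 was the member with the greatest difference. Its log2 values were 6.71 and 6.66 on the PC-3 arrays and 8.86 and 8.83 on the PC-3-BM arrays. The lines did not overlap, and the 2 arrays of a line differed by at most 0.05. The means were 6.68 ± 0.04 in PC-3 and 8.85 ± 0.02 in PC-3-BM (SD, n = 2), a 4.49-fold difference in favour of PC-3-BM (log2 difference 2.17, SE 0.07). It was the probe set with the 51st highest gain of 33297, and 41 of 18417 genes gained more. The study had singled out CYBRD1 for this same difference on these arrays, so it is given as a description and without a test. Leaving out any 1 array moved the difference only between 2.14 and 2.19.

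**Figure D1:**
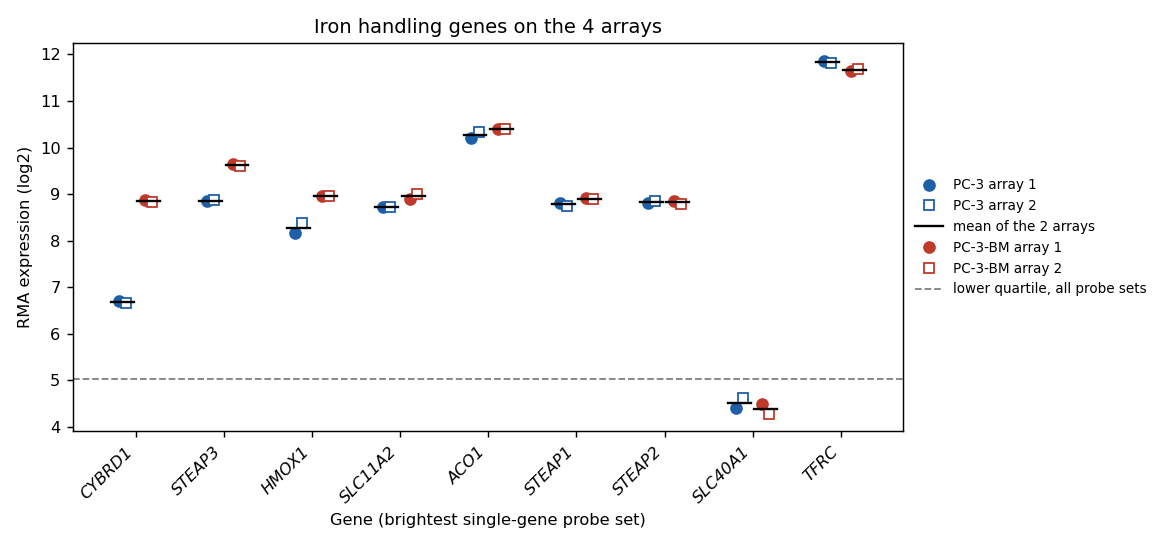
RMA expression (log2, vertical axis) of the 9 measured members on each of the 4 arrays, ordered by their difference. Blue marks are the PC-3 arrays and red marks the PC-3-BM arrays, filled circles array 1 and open squares array 2, black bars line means, and the dashed line the lower quartile of all probe sets. CYBRD1 moved from 6.68 to 8.85 while TFRC stayed between 11.66 and 11.86 and SLC40A1 lay under the quartile in both lines. Levels of different probe sets cannot be compared with each other.

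Of the 8 members other than CYBRD1, STEAP3 and HMOX1 rose, 0 fell and 6 were not called. This is 25% called, beside 23.2% of all probe sets and 29.6% of all genes with a probe set of their own. Their differences ran from −0.17 to 0.77 with a median of 0.13, against −0.04 over all such genes. The arrays of the lines did not overlap for 6 of the 8, beside 62.8% of all probe sets (28.5% higher and 34.3% lower in PC-3-BM). Among genes with a probe set of their own they did not overlap for 13007 of 18417. With CYBRD1, 3 of 9 were called, and since CYBRD1 was chosen for its difference nothing is read from that count. At the study's own thresholds, an adjusted p under 0.001 with an absolute log2 difference over 2, 17 probe sets (0.0511%) passed. The study reported a longer list at these thresholds and placed CYBRD1 among the genes significantly higher. In the limma fit used here CYBRD1 was not among the 17, since its adjusted p lay just over 0.001. In all, 35 probe sets with an absolute log2 difference over 2, CYBRD1 included, shared that adjusted p.

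STEAP3, the ferrireductase of the transferrin cycle, rose in PC-3-BM. It was at 8.86 on each PC-3 array and at 9.65 and 9.61 on the PC-3-BM arrays. The arrays within a line differed by at most 0.04, and both PC-3-BM arrays were above both PC-3 arrays. The change was 1.70-fold, from 8.86 ± 0.01 to 9.63 ± 0.03 (SD, n = 2), or 0.77 on the log2 scale (SE 0.07, limma, adjusted p = 0.00384). It kept its call in all 12 alternatives, with a difference of 0.75 to 0.80.

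STEAP1 and STEAP2, its relatives, lie next to each other on chromosome 7 and did not pass the test. STEAP1 was at 8.82 and 8.74 on the PC-3 arrays and at 8.91 and 8.89 on the PC-3-BM arrays (log2 difference 0.12, 95% interval −0.06 to 0.31, limma, adjusted p = 0.279). The arrays did not overlap, but the 95% interval of the difference held both signs. STEAP2 was at 8.80 and 8.86 in PC-3 and at 8.86 and 8.80 in PC-3-BM. Its lines overlapped fully, with a difference of −0.00 and a 95% interval of −0.19 to 0.18 whose sign turned with the scaling and with 2 of the left-out arrays. Whether STEAP3 differed from STEAP1 and STEAP2 in its response was not tested.

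The wider list of ferrireductases and of the cytochrome b561 family, to which CYBRD1 belongs by its fold, held 7 measured genes that were no members. Of these 1 rose, 2 fell and 4 were not called, with a median of −0.02. FRRS1, a protein with a ferric reductase domain, rose 1.56-fold and reached 10.14 ± 0.04 in PC-3-BM (SD, n = 2, log2 difference 0.64, SE 0.07). CYB561D2 had a mean of 8.53 ± 0.06 in PC-3 and fell to 7.82 ± 0.02 (SD, n = 2), by 0.71 (SE 0.07). CYB561A3, a lysosomal ferrireductase, went down from 9.15 ± 0.08 to 8.65 ± 0.00 (SD, n = 2), a difference of −0.50 (SE 0.08). The family thus held genes that moved each way. The adjusted p of the 3 genes ran from 0.00502 to 0.0127 in limma. The call of CYB561A3 was lost without any 1 of the 4 arrays (limma, adjusted p = 0.0546 to 0.0768), and those of FRRS1 and CYB561D2 held in all 12 alternatives. STEAP4 was at 3.52 on average, under the lower quartile of all probe sets.

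**Figure D2:**
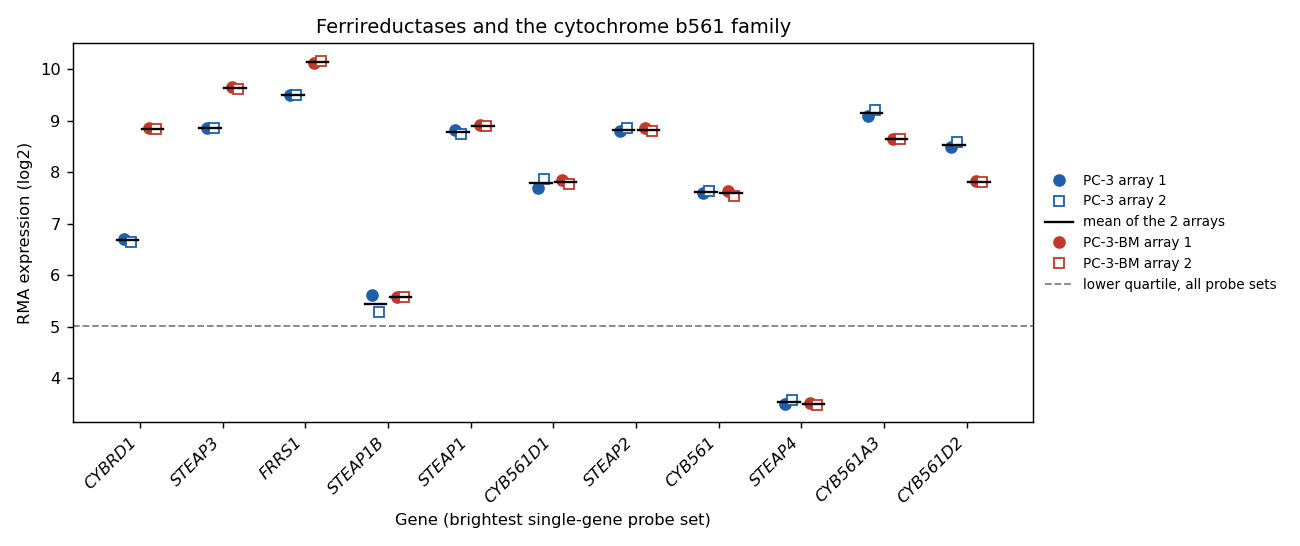
RMA expression (log2, vertical axis) of 11 ferrireductases and cytochrome b561 proteins on the 4 arrays, ordered by their difference. Marks and bars are as in the plot of members by array. CYBRD1, STEAP3 and FRRS1 on the left are higher on both PC-3-BM arrays, CYB561A3 and CYB561D2 on the right are lower, and the lines overlap for CYB561, CYB561D1, STEAP1B, STEAP2 and STEAP4.

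TFRC and SLC11A2, the receptor and the transporter of the transferrin route, were not called. TFRC was at 11.86 and 11.82 in PC-3 and at 11.66 and 11.68 in PC-3-BM. Both PC-3-BM arrays were below both PC-3 arrays, by 0.17 on average, with a 95% interval of −0.35 to 0.00 (limma, adjusted p = 0.145). SLC11A2 was at 8.73 on each PC-3 array and at 8.90 and 8.99 in PC-3-BM, higher on both arrays of that line. Its difference was 0.22, with a 95% interval of 0.03 to 0.41 (limma, adjusted p = 0.0988).

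Among the other 10 genes of iron uptake 2 rose, 1 fell and 7 were not called, with a median of −0.03. MELTF, the membrane-bound relative of transferrin, rose 1.53-fold from 8.57 ± 0.12 to 9.19 ± 0.05 (SD, n = 2), or 0.62 on the log2 scale (SE 0.09, limma, adjusted p = 0.0114). SLC39A14, a zinc and iron transporter also called ZIP14, rose 1.23-fold, from 10.72 ± 0.01 to 11.02 ± 0.06 (SD, n = 2, limma, adjusted p = 0.0435). SLC22A17, a receptor of the siderophore-binding protein lipocalin 2, fell by 0.48 (SE 0.08, limma, adjusted p = 0.0181). These calls were less firm than that of STEAP3. That of MELTF was lost without PC-3 array 2 or PC-3-BM array 1 (limma, adjusted p = 0.0639 and 0.0631) and that of SLC22A17 without any array but PC-3-BM array 2 (limma, adjusted p = 0.0755 to 0.0998). SLC39A14 lost its call without any 1 array (limma, adjusted p = 0.103 to 0.164), with the replicate number as a block (limma, adjusted p = 0.0784) and with quantile normalization (limma, adjusted p = 0.0524).

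Of the members that sense or export iron, neither was called. ACO1, which is a cytosolic aconitase when it holds an iron-sulfur cluster and an RNA-binding protein without it, was at 10.20 and 10.32 in PC-3 and at 10.41 on each PC-3-BM array. The 95% interval of its difference was −0.06 to 0.34 (limma, adjusted p = 0.255). SLC40A1, the iron exporter, was at 4.40 and 4.63 in PC-3 and at 4.49 and 4.28 in PC-3-BM. These values overlap and lie under the lower quartile of all probe sets, 5.02, and its difference was not called (95% interval −0.44 to 0.18, limma, adjusted p = 0.496).

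FBXL5, the iron-sensing adaptor that marks IREB2 for degradation, rose 1.28-fold from 9.52 ± 0.02 to 9.87 ± 0.05 (SD, n = 2, limma, adjusted p = 0.0271), a call lost without any 1 array (limma, adjusted p = 0.0746 to 0.126) and with the replicate number as a block (limma, adjusted p = 0.0509). FTL, whose iron-responsive element is printed above, was at 11.78 and 11.75 in PC-3 and at 12.33 and 12.09 in PC-3-BM. Both PC-3-BM arrays were higher, and FTL rose 1.37-fold (log2 difference 0.45, SE 0.10, limma, adjusted p = 0.0361). Its call was lost without PC-3 array 1, PC-3 array 2 or PC-3-BM array 1 (limma, adjusted p = 0.108 to 0.154). FTL was the only called gene of 8 measured transcripts with iron-responsive elements, which had a median of −0.08, and the only called gene of 6 for iron storage and chaperones. FTH1 was not analysed here.

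Of the 3 measured ferroxidases, which accompany iron export, HEPHL1 fell, CP was called higher from a dim level, and HEPH, hephaestin, named after its values were seen, was not called (4.41 and 4.53, limma, adjusted p = 0.441). HEPHL1, a membrane multicopper ferroxidase related to hephaestin, was at 9.36 and 9.32 in PC-3 and at 7.61 and 7.43 in PC-3-BM. It fell by 1.82 (SE 0.09, limma, adjusted p = 0.00149), from 9.34 ± 0.03 to 7.52 ± 0.13 (SD, n = 2), and the call held in all 12 alternatives. CP, the plasma ferroxidase ceruloplasmin, was at 4.56 and 4.36 in PC-3 and at 5.92 and 5.25 in PC-3-BM. The fitted difference was 1.12 (SE 0.24, limma, adjusted p = 0.0300). Its PC-3 values lay under the lower quartile, so no fold is given, its PC-3-BM arrays differed by more than those of any member, and the call was lost without PC-3 array 1 or 2 (limma, adjusted p = 0.112 and 0.149). Of the 9 measured genes of export and of the hepcidin axis that were no members, these were the only 2 called.

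HMOX1, the inducible heme oxygenase, was at 8.16 and 8.38 on the PC-3 arrays and at 8.96 and 8.95 on the PC-3-BM arrays. The PC-3 arrays differed by 0.22, the PC-3-BM arrays by far less, and the lines did not overlap. HMOX1 rose 1.61-fold, from 8.27 ± 0.16 to 8.96 ± 0.00 (SD, n = 2), or 0.68 on the log2 scale (SE 0.10, limma, adjusted p = 0.0108). The call was lost without PC-3 array 1 (difference 0.57, limma, adjusted p = 0.0523), PC-3-BM array 1 (0.68, limma, adjusted p = 0.0587) or PC-3-BM array 2 (0.69, limma, adjusted p = 0.0537).

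Other genes of heme transport and degradation went each way, with 2 that rose and 3 that fell of 12. BLVRB, which reduces biliverdin, rose 1.42-fold (log2 difference 0.51, SE 0.07) and LRP1, a receptor that takes up heme bound to hemopexin, rose 1.47-fold (0.56, SE 0.07). The heme exporter FLVCR1 fell by 0.50 (SE 0.08). HMOX2, the constitutive heme oxygenase, chosen after its values were seen, was at 10.19 and 10.23 in PC-3 and at 9.70 and 9.74 in PC-3-BM and fell by 0.49 (SE 0.07). In limma the adjusted p of BLVRB, LRP1, FLVCR1 and HMOX2 lay between 0.0095 and 0.0128. The calls of BLVRB, LRP1 and HMOX2 were lost without PC-3 array 1, PC-3 array 2 or PC-3-BM array 1 (limma, adjusted p = 0.0525 to 0.0723), and that of FLVCR1 without PC-3 array 1, PC-3 array 2 or PC-3-BM array 2 (limma, adjusted p = 0.0588 to 0.0807).

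Of 12 measured heme synthesis genes 5 fell and 1 rose, beside 14.8% lower and 14.8% higher over all genes, with a median of −0.17 beside −0.04. The mitochondrial carrier SLC25A38 fell by 0.78 (SE 0.10) and the transporter ABCB10 fell by 0.41 (SE 0.10). Chosen after their values were seen, ALAS1, the rate-limiting enzyme outside red cells, fell by 0.29 (SE 0.07) and FECH, which inserts the iron, fell by 0.39 (SE 0.07). The fifth, also chosen after its values were seen, was TMEM14C, a porphyrinogen carrier, which fell by 0.31 (SE 0.07) and was not refitted without single arrays. ABCB6, a porphyrin transporter, went the other way, from 7.42 ± 0.03 to 8.39 ± 0.02 (SD, n = 2), a 1.96-fold rise (limma, adjusted p = 0.00258) that held in all 12 alternatives. The falls had an adjusted p of 0.00781 to 0.0423 in limma. The calls of ABCB10, ALAS1 and FECH were lost without any 1 array (limma, adjusted p = 0.0668 to 0.172) and that of SLC25A38 without PC-3 array 1 or 2 (limma, adjusted p = 0.0585 and 0.0621). Centring the arrays on their medians ended the calls of ABCB10 and ALAS1 (limma, adjusted p = 0.0509 and 0.0774), and ALAS1 lost its call with the replicate block (limma, adjusted p = 0.0817).

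Mitochondrial iron transport and iron-sulfur cluster assembly are the other large use of iron in the mitochondrion. Of 18 measured genes 6 fell and 1 rose, with a median of −0.28, beside 14.8% lower, 14.8% higher and −0.04 over all genes. The late-acting assembly factor ISCA1 fell by 0.79 (SE 0.07, limma, adjusted p = 0.00417) and kept its call in all 12 alternatives, with a difference of −0.68 for the mean of its probe sets. NUBPL, which serves complex I, fell by 0.73 (SE 0.10, limma, adjusted p = 0.00908) and IBA57, a partner of ISCA1, fell by 0.56 (SE 0.11, limma, adjusted p = 0.0271). The call of NUBPL was lost without PC-3-BM array 1 or 2 (limma, adjusted p = 0.0501 and 0.0503) and that of IBA57 without any array but PC-3 array 1 (limma, adjusted p = 0.0784 to 0.119). In the cytosolic assembly pathway 1 of 8 rose and 1 fell. MMS19, which hands clusters to DNA-handling enzymes, rose 1.63-fold (log2 difference 0.71, SE 0.08, limma, adjusted p = 0.00539) in all 12 alternatives, while NUBP1 fell by 0.31 (SE 0.08, limma, adjusted p = 0.0457). The call of NUBP1 was lost without any 1 array (limma, adjusted p = 0.0883 to 0.169), with the replicate block (limma, adjusted p = 0.0760) and with centred arrays (limma, adjusted p = 0.0774).

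HMOX1 is a known target of the activator NRF2 and of the heme-sensing repressor BACH1. In the list of these factors and their targets, which did not hold HMOX1 itself, 7 of 13 measured genes rose and 1 fell, with a median of 0.42, beside 14.8% of all genes higher and 14.8% lower. The factors NFE2L2, BACH1, MAFF and MAFG made up 4 of the 7. Of the 8 targets GCLC, ME1 and SLC7A11 rose, SRXN1 fell, and NQO1, GCLM, TXNRD1 and OSGIN1 were not called. MAFF, MAFG and GCLC, like the uncalled targets named after their values were seen, were not refitted without single arrays. ME1, malic enzyme, rose 2.42-fold from 10.42 ± 0.08 to 11.70 ± 0.02 (SD, n = 2), and SLC7A11, the cystine carrier, rose 1.88-fold from 10.12 ± 0.02 to 11.04 ± 0.01 (SD, n = 2). SRXN1, sulfiredoxin, fell by 0.93 (SE 0.07). These 3 calls (limma, adjusted p = 0.00196 to 0.00323) held in all 12 alternatives. Chosen after their values were seen, NFE2L2, the gene of NRF2, rose 1.67-fold and BACH1 1.68-fold (limma, adjusted p = 0.0115 and 0.00753), so that activator and repressor messages were both higher. NFE2L2 lost its call without PC-3 array 1 or PC-3-BM array 1 (limma, adjusted p = 0.0629 and 0.0602) and BACH1 without PC-3 array 2 (limma, adjusted p = 0.0590). NQO1, a standard NRF2 target also chosen after its values were seen, was at 10.86 in both lines (95% interval of the difference −0.18 to 0.20).

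Ferroptosis is a form of cell death driven by iron and lipid peroxidation. Of 10 genes that control it 4 rose and 2 fell, with a median of 0.20, beside 14.8% higher, 14.8% lower and −0.04 over all genes. SLC7A11 was shared with the list above. CHAC1, which degrades glutathione, rose 2.49-fold from 8.40 ± 0.05 to 9.72 ± 0.05 (SD, n = 2, limma, adjusted p = 0.00183) in all 12 alternatives. GCH1, which starts the synthesis of the radical-trapping tetrahydrobiopterin, fell by 1.12 (SE 0.14, limma, adjusted p = 0.00770), a call lost without PC-3 array 1 or 2 (limma, adjusted p = 0.0613 and 0.0588). The other called genes were GPX4 (0.34, limma, adjusted p = 0.0311) and LPCAT3 (0.54, limma, adjusted p = 0.0086), which rose, and HSPB1 (−0.33, limma, adjusted p = 0.0317), which fell. These were named after their values were seen and were not refitted without single arrays. Genes said to restrain ferroptosis (SLC7A11) and to favour it (CHAC1) were thus both among those that rose.

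Over all 12 lists, leaving out the members, 109 of 122 genes were measured. Of these 21 rose, 22 fell and 66 were not called, which is 39.4% called beside 29.6% of all genes with a probe set of their own. Their median difference was −0.06, beside −0.04.

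**Figure D3:**
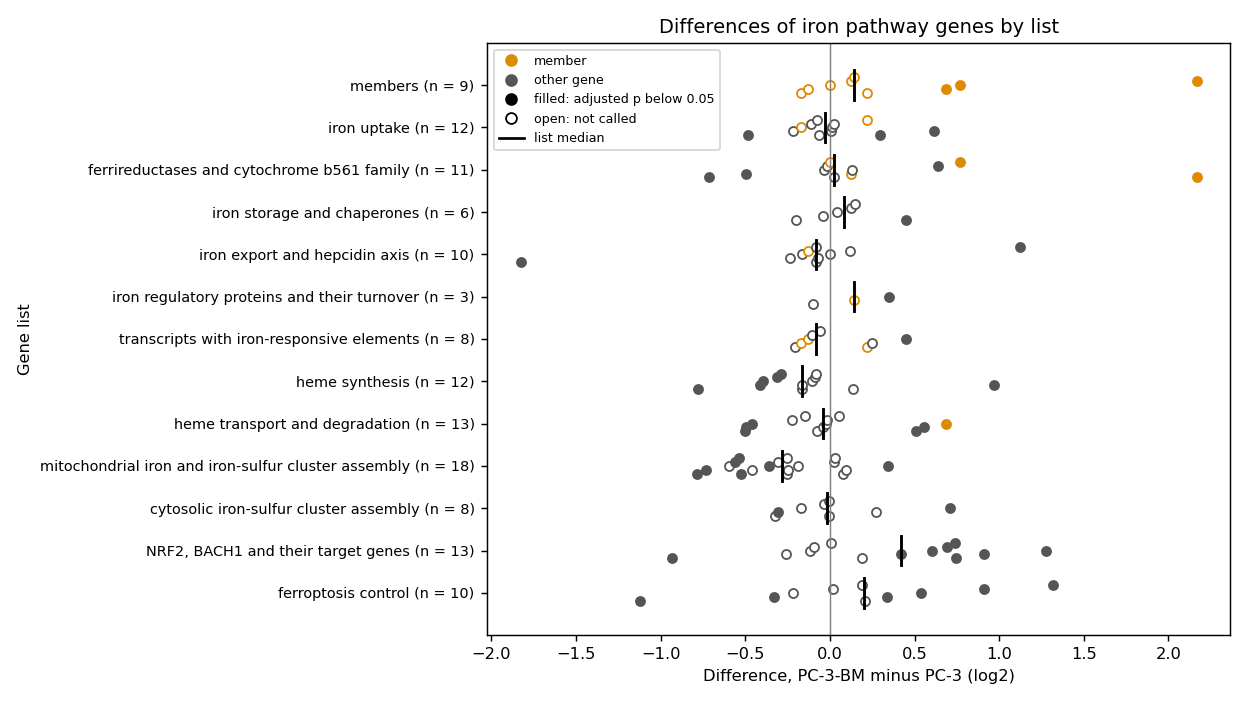
Differences of iron pathway genes between the lines (PC-3-BM minus PC-3, log2, horizontal axis) for the members and the 12 lists (vertical axis, with the number of genes measured). Each dot is a gene, orange for members and grey for others, filled at an adjusted p below 0.05, and black bars are list medians. The median was −0.28 for mitochondrial iron and iron-sulfur cluster assembly and 0.42 for the list of NRF2 and BACH1. CYBRD1, which was selected on its difference, lay at 2.17.

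The members lie on chromosomes 2, 3, 7, 9, 12 and 22, and neighbouring genes were looked at because the rule did not use position. Near here means by the order of measured genes, whatever the distance in bases. Of the 10 measured genes nearest to CYBRD1 in chromosome order, 3 were higher and 3 lower in PC-3-BM, beside 14.8% higher and 14.8% lower over all genes. Their median was 0.13 and their differences ran from −0.70 to 0.66. DYNC1I2, a dynein chain 129340 bases away, was higher by 0.66 (SE 0.08), SLC25A12, a mitochondrial carrier, was lower by a difference of −0.70 (SE 0.08), and TLK1, a chromatin kinase, was higher by 0.52 (SE 0.09). The difference of CYBRD1 was larger than that of all 10. CYBRD1 was selected on this difference, so nothing is read from the gap to its neighbours. Those 3 calls were lost without PC-3 array 1 (limma, adjusted p = 0.0524, 0.0508 and 0.109), and that of TLK1 also without PC-3 array 2 or PC-3-BM array 1 (limma, adjusted p = 0.0841 and 0.0790).

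Near STEAP3 3 of 10 genes were higher and 0 lower, with a median of −0.07. The sterol-sensing protein INSIG2, 1112837 bases away, was higher by 1.70 (SE 0.08). The acyl-CoA-binding protein DBI, 101325 bases away, was higher by 0.63 (SE 0.10). CCDC93, further along, was higher by 0.49 (SE 0.08), a call lost without any array but PC-3-BM array 2 (limma, adjusted p = 0.0697 to 0.0882). Near HMOX1 2 of 10 were higher and 0 lower, with a median of −0.03, APOL6 by 0.62 (SE 0.09) and TOM1 by 0.44 (SE 0.09). The call of INSIG2 held in all 12 alternatives. Those of DBI (limma, adjusted p = 0.0543 to 0.0679) and APOL6 (limma, adjusted p = 0.0525 to 0.0725) were lost in 3 fits that left out 1 array, without PC-3 array 1, PC-3-BM array 1 or PC-3-BM array 2 for DBI and without PC-3 array 1, PC-3 array 2 or PC-3-BM array 1 for APOL6. That of TOM1 was lost in all 4 such fits (limma, adjusted p = 0.0577 to 0.125).

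Near the uncalled members 1 to 4 of the 10 nearest genes were called, and the medians lay between −0.11 and 0.13. Around SLC40A1, GULP1, an adaptor for the engulfment of dying cells that lies 964664 bases away, was higher by 1.01 (SE 0.07) in all 12 alternatives. COL5A2 and ORMDL1 were higher by 0.48 and 0.32. CLDN12, a claudin, was higher by 0.83 (SE 0.08) beside STEAP1 and STEAP2, which are neighbours of each other, with CFAP69 higher by 0.41 and CDK14 at −0.39. DYNLT2B near TFRC was at −0.50. Near SLC11A2, DIP2B was at 0.31, LETMD1 at −0.32 and TFCP2 at −0.44. On the sides of ACO1, LINGO2, 3171042 bases away, was at 0.54 and RIGI, 533 bases away, at 0.45. Apart from GULP1 and CLDN12, each of these calls was lost in 3 or 4 of the fits without 1 array. DYNLT2B lost it without any array but PC-3-BM array 2 (limma, adjusted p = 0.0729 to 0.103) and the others in all 4 (limma, adjusted p = 0.0508 to 0.152). The replicate block ended the calls of CFAP69, DIP2B, LETMD1 and ORMDL1, and centring the arrays also that of LETMD1.

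**Figure D4:**
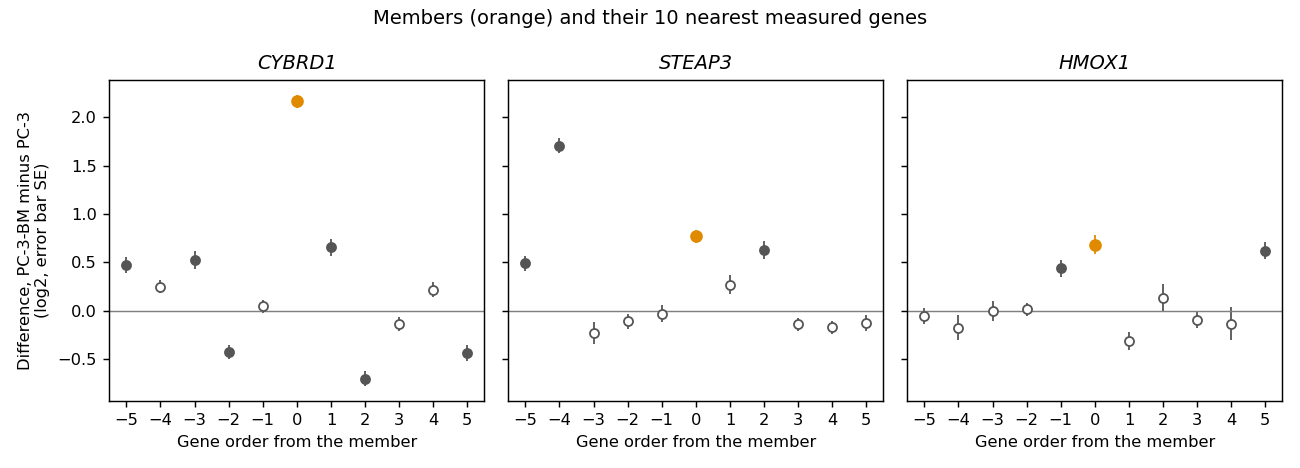
Differences between the lines (PC-3-BM minus PC-3, log2, vertical axis, error bars SE) for CYBRD1, STEAP3 and HMOX1 (orange) and the 5 nearest measured genes on each side in chromosome order (grey, filled at an adjusted p below 0.05). CYBRD1, which was selected on its difference, is at 2.17, and its 10 neighbours lie between −0.70 and 0.66. INSIG2 near STEAP3 is at 1.70.

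The genes with a pattern most like that of CYBRD1 were found by the Euclidean distance between log2 profiles over the 4 arrays, each centred on its own mean. The nearest were CLEC2B, a lectin-like ligand of a natural killer cell receptor (distance 0.06), SULT1C2, a sulfotransferase (0.10), INSIG1, a brake on sterol synthesis (0.10), MT1X, a metallothionein (0.12), and MCOLN3, a cation channel of endosomes (0.15). Their differences between the lines ran from 2.13 to 2.24, beside 2.17 for CYBRD1. MT1X moved from 10.23 to 12.38 and INSIG1 from 8.76 to 10.99. With 2 lines, the distance mainly compares the size of that difference.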

How the data were processed

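Expression was measured in 2 PC-3 and 2 PC-3-BM arrays. Biotinylated cRNA from total RNA was hybridised to Affymetrix Human Gene 1.0 ST arrays per the labels and methods, and the authors computed log2 expression with the robust multichip average (RMA). Tools named in the processing notes of the submitters were limma 3.24, R 3.2 and RMA. The authors' deposited log2 values, 33297 probe sets on 4 arrays without detection calls, were used as they stood. Because RMA forces the arrays to a common distribution, a shift of all transcripts would not show. The number of arrays limits the precision.

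Genes were named from the platform annotation (19460 probe sets had 1 symbol, 1754 several and 12083 none, and 19429 matched the RefSeq gene table of GRCh38.p14 by identifier) and read from their brightest 1-symbol probe set. PC-3-BM was compared with PC-3 in limma 3.58.1 under R 4.3.3, with empirical Bayes moderation (2.88 prior and 2 residual degrees of freedom) and p-values adjusted over the whole table by Benjamini-Hochberg. The code was tested on simulated data. Named were all members, FTL, up to 3 called genes with the largest differences per list, up to 3 called neighbours of a member and the 5 genes most like CYBRD1. The members and lists were chosen with earlier results of these data known. Deviations of same-numbered arrays from their line means correlated at -0.02, and the labels give no pairing.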

Additional observations from a re-analysis of the deposited data

How the results depend on the processing

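The fit was repeated without each array, with the replicate number as a block, with other scalings, filters and variance models, and with the mean of a gene's probe sets, 12 alternatives in all, of which SLC40A1 was too dim for 1. CYBRD1 kept its direction and STEAP3 its direction and call in all 12. The measured members have 1 probe set each, so the block, filters, variance models and mean of probe sets leave their differences unchanged. In those fits only the SE and the adjusted p can move. CYBRD1 was selected on its difference, so nothing is read from its kept direction. HMOX1 kept its direction and lost its call in 3 of the 4 fits without 1 array, where its difference ranged from 0.57 to 0.79. STEAP2, at −0.00, turned to 0.0275 without PC-3 array 2, to 0.0287 without PC-3-BM array 2 (lowest without 1 array −0.0322) and to 0.0331 with arrays centred on their medians. TFRC (−0.17) passed the threshold with an intensity trend in the variance (limma, adjusted p = 0.0436, over the alternatives up to 0.361), which made 1 member lower where the main count was 0. SLC11A2 (0.22) passed with that trend (limma, adjusted p = 0.0488) and among 1-symbol probe sets alone (limma, adjusted p = 0.0454, over the alternatives up to 0.281). The cause of these shifts was not tested. Without 1 array the members called higher numbered 2 to 3. The 21 pathway genes that rose became 8 to 15 and the 22 that fell 5 to 10, the probe sets called 2238 to 3854 instead of 7717 and those called higher 1305 to 2109 instead of 3854. Such fits have 1 residual degree of freedom and assume that the lone array of a line varies like the other line. With the cut-offs the study used 17 probe sets passed, beside 0 without any 1 array, 0 with the replicate block, 84 with centred arrays, 29 with quantile normalization, 85 among probe sets with a mean above 5, 83 among 1-symbol probe sets and 99 with the intensity trend. The replicate block gave 6473 calls instead of 7717 and changed no call of a member. No pairing follows from the labels.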
